A study of Mus musculus and Rattus norvegicus with 24 samples.

Results

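Vegfa, Angpt2, Adm, Slc2a1, Hk2, Pfkfb3, Ldha, Pdk1, Bnip3 and Egln3, 10 genes of the response to low oxygen, were followed in mouse and rat brain after the middle cerebral artery had been blocked. They were picked by gene symbol, with earlier results of these data known, so the choice was not blind to the data. All 10 were among the 22180 mouse genes measured, and 9 of them were among the 18166 rat genes. The rat array reads Bnip3 in a cluster shared with its pseudogene Bnip3-ps1, and that cluster was not used.

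Adult male C57BL/6 mice aged 8 to 10 weeks and adult male Sprague-Dawley rats aged 8 to 12 weeks underwent permanent middle cerebral artery occlusion (pMCAO), in which a filament passed up the carotid blocks the artery at its origin and stays tied in place, or the same surgery without occlusion (sham). The right artery was occluded in mice and the left in rats, under isoflurane in both. A 3 by 3 mm piece of the penumbra, the rim of tissue around the ischaemic core, was taken at 2 h or 6 h, and shams gave the matching area on the operated side. Each of the 8 groups held 3 animals with 1 whole-transcript array each, so precision was limited by that number. Values are the deposited log2 expression values. An effect is the mean log2 value after pMCAO minus that of the sham animals of the same species and time, with its standard error (SE) from limma, and a gene was said to rise or fall where the Benjamini-Hochberg adjusted p over all genes of the species was under 0.05. Array medians were 6.03 to 6.06 in mouse at 2 h and 5.92 to 5.96 at 6 h, against 6.67 to 6.75 and 5.82 to 5.87 in rat, so levels were not compared between times or species. The mean of the 5 pan-neuronal markers was 11.21 to 12.19 over all 24 arrays, well above the array medians. That mean was lower after pMCAO than in sham at 6 h in both species (11.21 to 11.24 against 11.34 to 11.36 in mouse, 11.42 to 11.47 against 11.50 to 11.55 in rat). Of the 5 markers at 6 h, 1 fell in mouse and 0 in rat, and 1 in mouse and 2 in rat had positive effects. In such pieces of whole tissue, fewer cells of a type and less RNA per cell cannot be told apart.

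Cells sense oxygen through prolyl hydroxylases, which mark the alpha subunits of the hypoxia-inducible factors (HIF) for capture by the Vhl ubiquitin ligase and destruction. When oxygen falls the hydroxylases stall, HIF accumulates, and it binds a short core motif near genes for glucose uptake, glycolysis, vessel growth and vessel tone. In ischaemic brain this pathway is known for shifting energy supply towards anaerobic glycolysis and for loosening and later regrowing vessels.

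The HIF core motif, read as ACGTG or GCGTG on either strand, was looked up in the 250 bases before the RefSeq starts of the mouse genes (assembly GRCm38.p6). Windows were found for 9 of the 10 genes, 13 in all, and Angpt2 had none. The windows below are those of 3 genes that rose at 6 h, Adm and Pfkfb3 in both species and Slc2a1 in rat, and of Ldha, which did not pass the test in either species and whose window holds the most ACGTG matches. They are written 5′ to 3′ on the strand of the gene, the last base lying just before the start, with each match in capitals (a match on the other strand appears as CACGT or CACGC).
Adm, chr7:110627407-110627656, plus strand: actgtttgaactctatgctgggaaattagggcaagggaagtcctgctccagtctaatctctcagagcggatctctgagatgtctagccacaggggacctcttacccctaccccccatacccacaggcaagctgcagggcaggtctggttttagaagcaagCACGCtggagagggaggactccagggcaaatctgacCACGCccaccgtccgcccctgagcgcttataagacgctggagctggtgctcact
Slc2a1, chr4:119108495-119108744, plus strand: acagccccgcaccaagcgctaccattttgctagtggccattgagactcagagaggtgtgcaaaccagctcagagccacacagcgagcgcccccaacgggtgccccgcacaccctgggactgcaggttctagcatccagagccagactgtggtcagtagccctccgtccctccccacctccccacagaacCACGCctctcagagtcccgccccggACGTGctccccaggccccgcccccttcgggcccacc
Pfkfb3, chr2:11553930-11554179, minus strand: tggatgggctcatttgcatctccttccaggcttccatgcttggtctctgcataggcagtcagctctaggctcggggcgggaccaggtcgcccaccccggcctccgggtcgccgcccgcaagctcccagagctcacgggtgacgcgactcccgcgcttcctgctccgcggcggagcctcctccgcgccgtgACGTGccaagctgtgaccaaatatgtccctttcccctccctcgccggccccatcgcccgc
Ldha, chr7:46845554-46845803, plus strand: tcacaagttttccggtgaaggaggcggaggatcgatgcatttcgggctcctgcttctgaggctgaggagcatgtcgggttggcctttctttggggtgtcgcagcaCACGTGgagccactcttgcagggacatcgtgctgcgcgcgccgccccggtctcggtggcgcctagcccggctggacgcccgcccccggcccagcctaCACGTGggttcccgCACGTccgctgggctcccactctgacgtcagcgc
The Adm window held GCGTG on the other strand at 90 and 54 bases before the start and no ACGTG. The Slc2a1 window held 1 match of each form, at 61 and 36 bases. Pfkfb3 held a single ACGTG at 60 bases before the start shown, and another of its starts, 2 separate sites. Ldha held 3 separate sites, of which 2 were the palindrome CACGTG, which counts on both strands. Taking all starts of a gene together, every one of the 9 genes with a window had at least 1 match to either form, 7 to ACGTG and 7 to GCGTG. The Vegfa window at chr17:46032378-46032627 and the Pdk1 window at chr2:71874654-71874903 held no match, while another start of each gene did. Vegfa therefore counts only through its window at chr17:46025164-46025413 (minus strand), which lies downstream of its other start. Whether that stretch acts as a promoter was not tested. Over 32851 windows of all genes, 16.6% held ACGTG, 28.2% held GCGTG and 38.6% held either, and by gene the shares were 18.5%, 30.9% and 41.5% of 27025. Bnip3, which did not pass the test in mouse, held 4 separate sites, more than any window of the genes that rose. A match is a run of letters and not a measured binding site.

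At 6 h after pMCAO the secreted factors Vegfa, Adm and Angpt2 and the glycolytic regulator Pfkfb3 rose in both species, and the glucose transporter gene Slc2a1 rose in rat. At 2 h none of the 10 genes passed the test. In mouse at 6 h, 4 of 10 rose, 0 fell and 6 did not pass, with a median log2 fold change of 0.27 against -0.02 over all genes. In rat at 6 h, 5 of 9 rose, 0 fell and 4 did not pass, with a median of 0.55 against -0.02. Fitted on the 6 arrays of a comparison alone, the calls at 6 h were Adm and Angpt2 in mouse and Adm in rat. Over all genes tested, limma called 3.21% higher and 4.23% lower in mouse at 6 h, and 2.85% higher and 3.62% lower in rat. Which direction held more calls depended on the scaling: 711 higher and 938 lower in mouse became 804 and 766 with quantile normalization, and 517 and 658 in rat became 598 and 553 with median centring. The other scaling kept more lower calls in each species. It gave 681 higher and 862 lower in mouse (median centring), and 634 and 689 in rat (quantile normalization). Every pMCAO animal lay above every sham animal for 6 of 10 genes in mouse at 6 h, where 10.7% of all genes did so, and for 4 of 9 in rat, where 9.73% did. At 2 h, 0 of 10 passed in mouse (limma; 1 at an unadjusted p under 0.05) and 0 of 9 in rat (3 at an unadjusted p under 0.05), where 0.149% and 0.033% of all genes were called higher at the adjusted threshold. The share of all genes at an unadjusted p under 0.05 was not worked out. Counts at that limit, here and below, therefore have no background and are not read as a result. The median at 2 h was 0.06 in mouse against -0.01 over all genes, and 0.19 in rat against -0.00. All pMCAO animals lay above all sham animals at 2 h for 1 gene in mouse (Vegfa), where 6.24% of all genes did so, and for 2 in rat (Vegfa and Hk2), where 5.54% did.

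**Figure D1:**
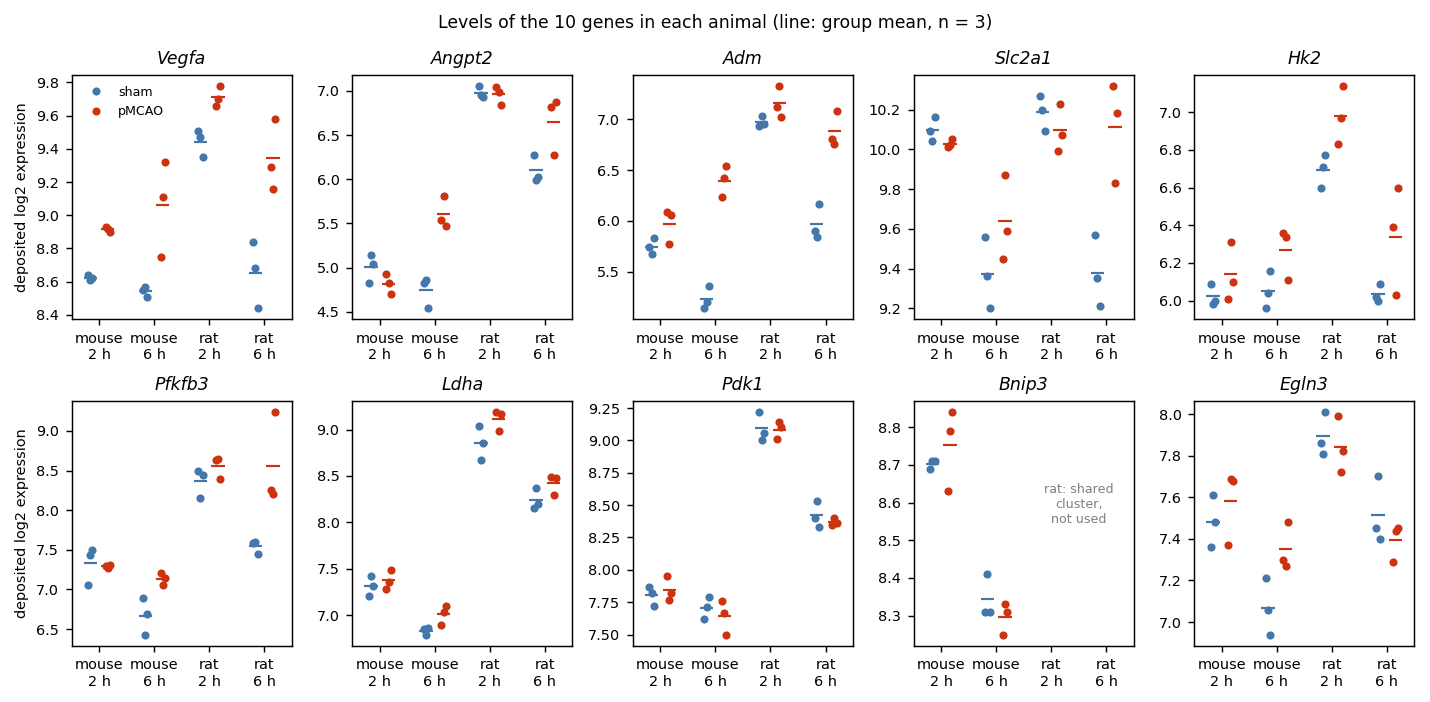
Deposited log2 expression (vertical axis) of the 10 genes in each animal, by species and time (horizontal axis), for sham (blue) and pMCAO (red), with each group's mean as a line (n = 3). Adm at 6 h shows the widest gap in mouse, 6.23 to 6.54 after pMCAO against 5.14 to 5.36 in sham.

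Among the ligands, Vegfa encodes the vascular endothelial growth factor that drives endothelial growth and makes vessels leaky. In mouse at 2 h it read 8.93, 8.92 and 8.90 after pMCAO and 8.64, 8.61 and 8.62 in sham. At 6 h it read 8.75, 9.11 and 9.32 after pMCAO against 8.55, 8.57 and 8.51 in sham. All pMCAO animals were above all sham animals at both times, close together at 2 h and spread out at 6 h, where replicate 1 lay nearest the sham animals. The effect was 0.29 ± 0.11 at 2 h (limma adjusted p = 0.536) and 0.52 ± 0.11 at 6 h (1.43-fold, limma adjusted p = 0.0184), and the 6 h call was lost without pMCAO replicate 2 (limma adjusted p = 0.0541) or sham replicate 3 (0.0646). In rat at 2 h Vegfa read 9.66, 9.70 and 9.78 after pMCAO and 9.51, 9.47 and 9.35 in sham. The 6 h values were 9.29, 9.16 and 9.58 against 8.84, 8.68 and 8.44. The rat groups were likewise apart at both times. The effect was 0.27 ± 0.12 at 2 h (limma adjusted p = 0.693) and 0.69 ± 0.12 at 6 h (1.61-fold, limma adjusted p = 0.00603), and the 6 h call held whichever array was left out.

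Adm encodes adrenomedullin, a peptide that dilates vessels and tightens the endothelial barrier. In mouse it read 6.09, 5.77 and 6.06 after pMCAO and 5.74, 5.67 and 5.83 in sham at 2 h. By 6 h the values were 6.23, 6.42 and 6.54 against 5.14, 5.20 and 5.36. The 2 h groups overlapped, while at 6 h every pMCAO animal was well above every sham animal. Its 6 h effect of 1.16 ± 0.10 (2.24-fold, limma adjusted p = 0.000254) ranked 33 from the highest of the 22180 mouse genes, and the 2 h effect was 0.23 ± 0.10 (limma adjusted p = 0.648). Adm lay low in mouse sham animals at 6 h, with a mean of 5.23 against 6.295 for the median gene. In rat it read 7.12, 7.33 and 7.02 after pMCAO and 6.93, 7.03 and 6.95 in sham at 2 h. At 6 h the animals read 6.81, 6.76 and 7.08 against 5.90, 5.84 and 6.17. The rat groups overlapped at 2 h and stood apart at 6 h. The rat 6 h effect was 0.91 ± 0.11 (1.88-fold, limma adjusted p = 0.000987), and the 2 h effect was 0.19 ± 0.11 (limma adjusted p = 0.796). Adm passed at 6 h in both species whichever array was left out and under all 9 other settings tried for it in each species.

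Angpt2 encodes angiopoietin-2, which is stored in endothelial cells and loosens vessels by opposing angiopoietin-1 at the Tek receptor. The mouse values were 4.93, 4.83 and 4.70 after pMCAO and 4.83, 5.14 and 5.04 in sham at 2 h. At 6 h it read 5.54, 5.81 and 5.47 against 4.83, 4.86 and 4.54. The 2 h groups overlapped and the 6 h groups did not, although its level lay below that of the median gene of the array. The mouse 6 h effect was 0.86 ± 0.12 (1.82-fold, limma adjusted p = 0.00292), held whichever array was left out, against -0.18 ± 0.12 at 2 h (limma adjusted p = 0.770). In rat it read 7.05, 6.99 and 6.84 after pMCAO and 7.06, 6.95 and 6.93 in sham at 2 h. The 6 h values were 6.82, 6.27 and 6.87 against 6.28, 5.99 and 6.03. The rat 6 h groups touched, since pMCAO replicate 2 read just under the highest sham animal. The rat 6 h effect was 0.55 ± 0.14 (1.47-fold, limma adjusted p = 0.0384), and the call was lost without pMCAO replicate 1 or 3 or sham replicate 2 or 3 (limma adjusted p = 0.0968 to 0.133). The mean of the endothelial markers at 6 h was 6.91 to 7.27 after pMCAO and 7.47 to 7.75 in sham in rat, and 6.91 to 7.15 and 6.93 to 7.16 in mouse. Single endothelial markers went both ways: of 7 in rat 4 fell and 2 had positive effects, and of 9 in mouse 2 fell and 1 rose.

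**Figure D2:**
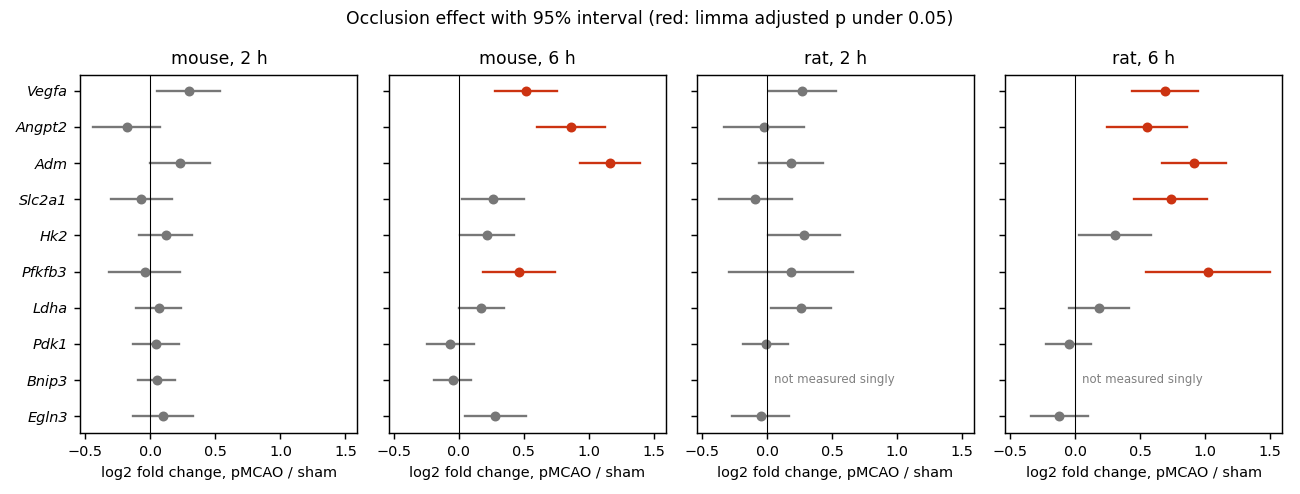
Log2 fold change of pMCAO over sham (horizontal axis) for the 10 genes (rows) in each species and time, with its 95% confidence interval from limma (n = 3 per group). Red marks the 4 mouse and 5 rat genes that passed at 6 h, and no gene passed at 2 h.

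Of the 5 genes of glucose uptake, glycolysis and pyruvate control, 1 rose in mouse at 6 h (Pfkfb3) and 2 rose in rat (Pfkfb3 and Slc2a1), with medians of 0.22 and 0.30. Slc2a1 encodes the glucose transporter GLUT1 of the blood-brain barrier and astrocytes. Mouse animals read 10.01, 10.02 and 10.05 after pMCAO and 10.09, 10.04 and 10.16 in sham at 2 h. By 6 h the values were 9.45, 9.87 and 9.59 against 9.56, 9.36 and 9.20. The mouse groups overlapped at 6 h through pMCAO replicate 1. The mouse effect was -0.07 ± 0.11 at 2 h (limma adjusted p = 0.925) and 0.26 ± 0.11 at 6 h (limma adjusted p = 0.167, 95% interval 0.03 to 0.50). In rat it read 9.99, 10.23 and 10.07 after pMCAO and 10.27, 10.20 and 10.09 in sham at 2 h. At 6 h the animals read 10.32, 9.83 and 10.18 against 9.57, 9.35 and 9.21. Every rat pMCAO animal at 6 h was above every sham animal. The rat effect was -0.09 ± 0.13 at 2 h (limma adjusted p = 0.924) and 0.73 ± 0.13 at 6 h (1.66-fold, limma adjusted p = 0.00651), held whichever array was left out.

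Pfkfb3 encodes the enzyme that makes fructose-2,6-bisphosphate, an activator of glycolysis. In mouse it read 7.29, 7.27 and 7.31 after pMCAO and 7.06, 7.44 and 7.50 in sham at 2 h. At 6 h it read 7.21, 7.05 and 7.14 against 6.89, 6.43 and 6.69. The groups overlapped at 2 h and not at 6 h. The mouse effect was -0.04 ± 0.13 at 2 h (limma adjusted p = 0.963) and 0.46 ± 0.13 at 6 h (1.38-fold, limma adjusted p = 0.0465). That call held only without sham replicate 1 (limma adjusted p = 0.0331) and was lost without any other of the 6 arrays (0.0738 to 0.138). In rat it read 8.63, 8.64 and 8.39 after pMCAO and 8.50, 8.16 and 8.44 in sham at 2 h. The 6 h values were 8.25, 8.20 and 9.24 against 7.58, 7.60 and 7.45. All rat pMCAO animals at 6 h were above the sham animals, with replicate 3 far above the others. The rat effect was 0.19 ± 0.22 at 2 h (limma adjusted p = 0.904) and 1.02 ± 0.22 at 6 h (2.03-fold, limma adjusted p = 0.0180), and the 6 h call was lost without any of the sham animals (limma adjusted p = 0.0532 to 0.0539).

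Hk2 encodes the hexokinase that traps glucose at the mitochondrial surface. The mouse values were 6.01, 6.31 and 6.10 after pMCAO and 6.09, 5.98 and 6.00 in sham at 2 h, and 6.36, 6.34 and 6.11 against 5.96, 6.04 and 6.16 at 6 h. In rat it read 6.83, 6.97 and 7.14 after pMCAO and 6.60, 6.71 and 6.77 in sham at 2 h, and 6.39, 6.03 and 6.60 against 6.02, 6.00 and 6.09 at 6 h. Only the rat 2 h groups stood apart. The effects were 0.12 ± 0.09 and 0.22 ± 0.09 in mouse (limma adjusted p = 0.813 and 0.189) and 0.29 ± 0.13 and 0.30 ± 0.13 in rat (limma adjusted p = 0.695 and 0.182) at 2 h and 6 h. The rat 6 h effect was 0.46 without pMCAO replicate 2 (limma adjusted p = 0.0253, past the threshold) and 0.17 without pMCAO replicate 3 (limma adjusted p = 0.467).

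Ldha encodes the lactate dehydrogenase subunit that turns pyruvate into lactate. In mouse at 6 h it read 6.89, 7.03 and 7.10 after pMCAO and 6.85, 6.79 and 6.86 in sham, groups apart by a narrow gap, with an effect of 0.17 ± 0.08 (limma adjusted p = 0.214). In rat at 6 h it read 8.49, 8.29 and 8.48 against 8.15, 8.37 and 8.20, groups that overlapped, with an effect of 0.18 ± 0.11 (limma adjusted p = 0.355). At 2 h the effects were 0.06 ± 0.08 in mouse (limma adjusted p = 0.899) and 0.26 ± 0.11 in rat (limma adjusted p = 0.645), where pMCAO animals read 9.19, 8.98 and 9.17 and sham animals 9.04, 8.67 and 8.85. Ldha did not pass at either time in either species.

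Pdk1 encodes a kinase that closes the pyruvate dehydrogenase gate into the mitochondrion. By 6 h the values were 7.76, 7.67 and 7.50 after pMCAO and 7.62, 7.71 and 7.79 in sham in mouse, and 8.35, 8.40 and 8.36 against 8.40, 8.53 and 8.33 in rat. The groups overlapped in both species. The 6 h effects were -0.06 ± 0.08 (limma adjusted p = 0.694, 95% interval -0.24 to 0.12) and -0.05 ± 0.08 (limma adjusted p = 0.770, 95% interval -0.22 to 0.12), and the 2 h effects were 0.04 ± 0.08 and -0.01 ± 0.08. These intervals bound the change at 6 h for the cluster used, and their upper ends lie below the lower ends of the intervals of Vegfa (0.28 in mouse and 0.43 in rat) and Adm (0.94 and 0.67). The second mouse cluster of Pdk1, not used, had a 6 h effect of -0.27, outside the mouse interval. The difference between genes was not itself tested.

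Bnip3 encodes a mitochondrial outer membrane protein that starts the removal of mitochondria, and Egln3 an oxygen-sensing prolyl hydroxylase that HIF itself induces. Bnip3 in mouse at 6 h read 8.25, 8.33 and 8.31 after pMCAO and 8.31, 8.41 and 8.31 in sham. Its effect was -0.05 ± 0.06 at 6 h (limma adjusted p = 0.715, 95% interval -0.19 to 0.10) and 0.05 ± 0.06 at 2 h (limma adjusted p = 0.904). Egln3 in mouse at 6 h read 7.30, 7.27 and 7.48 after pMCAO and 7.21, 7.06 and 6.94 in sham, with no overlap. Its mouse effect was 0.28 ± 0.11 (limma adjusted p = 0.137) at 6 h and 0.10 ± 0.11 at 2 h (limma adjusted p = 0.882). In rat at 6 h it read 7.29, 7.44 and 7.45 against 7.45, 7.70 and 7.40, groups that overlapped. The rat effect was -0.12 ± 0.10 at 6 h (limma adjusted p = 0.524) and -0.05 ± 0.10 at 2 h (limma adjusted p = 0.954). Neither gene passed in any comparison.

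The gap between the times was tested as the 6 h effect minus the 2 h effect. In mouse 2 of 10 genes passed, against 0.171% of all genes: Angpt2 by 1.05 ± 0.17 (95% interval 0.68 to 1.41, limma adjusted p = 0.0416) and Adm by 0.94 ± 0.15 (0.61 to 1.26, limma adjusted p = 0.0400). Both passed when pMCAO replicate 1 at 6 h was left out and neither did when another of the 12 mouse arrays was, with limma adjusted p up to 0.119, while the differences stayed between 0.95 and 1.13 for Angpt2 and between 0.84 and 1.02 for Adm over all settings. In rat 0 of 9 passed (limma; 5 at an unadjusted p under 0.05), against 0.231% of all genes. The rat differences were 0.83 ± 0.31 for Pfkfb3 (limma adjusted p = 0.344), 0.82 ± 0.18 for Slc2a1 (0.108), 0.73 ± 0.16 for Adm (0.108), 0.57 ± 0.20 for Angpt2 (0.309) and 0.42 ± 0.17 for Vegfa (0.381). Without rat pMCAO replicate 2 at 6 h, Slc2a1 (difference 0.96, limma adjusted p = 0.0224) and Angpt2 (0.77, limma adjusted p = 0.0336) passed. Without replicate 3 the Pfkfb3 difference was 0.50 (limma adjusted p = 0.280), and over the 12 arrays left out in turn its adjusted p reached 0.555. For Vegfa the mouse difference was 0.22 ± 0.15 (95% interval -0.12 to 0.56, limma adjusted p = 0.553), and its 2 h effect was the highest of the 10 mouse genes. For Hk2 the rat effects of 0.29 and 0.30 gave a difference of 0.02 ± 0.18 (95% interval -0.37 to 0.41).

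Rat pMCAO replicate 2 at 6 h was the lowest of its group in 7 of 9 genes, and replicate 3 the highest in 6 of 9. In a principal component analysis of the rat 6 h arrays, replicate 2 lay on the leading axis at -10.4, nearest the sham animals (14.5 to 18.7), and replicates 1 and 3 at -16.6 and -23.5. At 2 h rat pMCAO replicate 2 stood apart from the others on the corresponding axis (-25.9 against -1.63 and -2.33), and no gene of the 9 passed at 2 h with or without it. The spread between animals was larger after pMCAO than in sham for 7 of 10 genes in mouse at 6 h and 5 of 9 in rat, with the highest SD, 0.59, in rat Pfkfb3.

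The effects of the species were compared over the 14193 symbols they share. At 2 h 0 of 9 genes passed (0 at an unadjusted p under 0.05, limma effects and their SEs, with Satterthwaite degrees of freedom), against 0.0141% of all genes, and at 6 h 0 of 9 (3 at an unadjusted p under 0.05), against 2.28%. At 6 h the effect in mouse minus that in rat was -0.47 ± 0.17 for Slc2a1 (95% interval -0.82 to -0.12, adjusted p = 0.143, limma effects), -0.56 ± 0.25 for Pfkfb3 (-1.08 to -0.03, adjusted p = 0.282) and 0.40 ± 0.15 for Egln3 (0.10 to 0.71, adjusted p = 0.154). Without rat pMCAO replicate 2, Slc2a1 passed (difference -0.61, adjusted p = 0.0387, limma effects), while over the arrays left out in turn its difference ran from -0.61 to -0.37. The Pfkfb3 difference was -0.22 without rat pMCAO replicate 3 (adjusted p = 0.579, limma effects) and reached -0.74 without replicate 2. That of Egln3 ran from 0.31 to 0.47. For Adm the difference was 0.25 ± 0.15 (-0.07 to 0.57), for Angpt2 0.31 ± 0.18 (-0.07 to 0.69) and for Vegfa -0.17 ± 0.16 (-0.51 to 0.16). A rise called in rat and not in mouse, as for Slc2a1, was therefore not shown to differ between the species.

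Around these genes, the other members of the pathway were read from 4 lists. Of 8 genes of oxygen sensing and HIF subunits, 1 rose at 6 h in each species, Vhl, which encodes the recognition subunit of the ligase that removes HIF. Vhl was 0.25 ± 0.07 higher in mouse (limma adjusted p = 0.0495) and 0.40 ± 0.10 higher in rat (limma adjusted p = 0.0371). The call was lost without 5 of 6 arrays in mouse (limma adjusted p up to 0.141) and without any of the 6 in rat (up to 0.113). The list medians at 6 h, -0.02 in both species, were those of all genes.

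Of 20 other genes of glycolysis and lactate measured in mouse, 3 rose at 6 h, and of 18 in rat, 2 rose, and none fell in either (limma; at an unadjusted p under 0.05, 1 lower in mouse and 0 in rat). Slc16a1, which encodes the lactate and pyruvate transporter MCT1, rose in both: 8.51, 8.92 and 9.14 after pMCAO against 7.91, 8.05 and 8.06 in sham in mouse (0.85 ± 0.13, limma adjusted p = 0.00494), and 8.90, 8.71 and 9.27 against 8.28, 8.07 and 8.11 in rat (0.81 ± 0.13, limma adjusted p = 0.00413). Its groups did not overlap in either species. In mouse Pdk4, a pyruvate dehydrogenase kinase, rose by 0.76 ± 0.12 (limma adjusted p = 0.00597), and Slc2a3, the neuronal glucose transporter GLUT3, by 0.42 ± 0.08 (limma adjusted p = 0.00953). Pdk4 differed between the times in mouse: it read 6.91, 7.23 and 7.24 after pMCAO and 7.34, 7.51 and 7.27 in sham at 2 h, below all sham animals, and 7.09, 7.21 and 7.18 against 6.14, 6.49 and 6.56 at 6 h, above all of them. The difference was 1.01 ± 0.17 (limma adjusted p = 0.0466), and it stayed past the threshold when pMCAO replicate 1 at 6 h was left out but not when another of the 12 arrays was (limma adjusted p up to 0.119). In rat Pfkfb4, a relative of Pfkfb3, rose by 0.40 ± 0.10 (limma adjusted p = 0.0338), a call lost without 5 of the 6 arrays (up to 0.119). The list medians were 0.01 in mouse and 0.08 in rat.

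Of 19 other hypoxia-responsive genes in mouse 5 rose and 0 fell at 6 h (limma; 1 lower at an unadjusted p under 0.05), and of 21 in rat 6 rose and 0 fell (limma; 2 lower at an unadjusted p under 0.05). Hmox1, which encodes the heme-degrading enzyme heme oxygenase-1, rose furthest in both. It read 7.46, 7.42 and 7.57 after pMCAO against 6.18, 6.00 and 6.16 in sham in mouse (1.37 ± 0.17, limma adjusted p = 0.00184), and 7.25, 7.23 and 7.22 against 5.88, 5.61 and 5.26 in rat (1.65 ± 0.17, limma adjusted p = 0.000328). The pMCAO animals were close together and far above the sham animals in both species. Angptl4, an inhibitor of lipoprotein lipase, rose by 0.45 ± 0.12 in mouse (limma adjusted p = 0.0474, lost without 5 of 6 arrays, up to 0.133) and by 1.09 ± 0.19 in rat (limma adjusted p = 0.00708). In mouse the secreted glycoprotein gene Stc2 (0.60 ± 0.09, limma adjusted p = 0.00595) and Ddit4 (0.57 ± 0.09, limma adjusted p = 0.00731), whose product restrains mTOR, also rose. In rat the stress-response gene Ndrg1 rose by 0.90 ± 0.18 (limma adjusted p = 0.0123). The remaining calls, named here after their values were seen, were the carbonic anhydrase gene Car9 in mouse (0.40, limma adjusted p = 0.0341) and, in rat, its relative Car12 (0.84, limma adjusted p = 0.0371) and the collagen prolyl hydroxylase gene P4ha2 (0.71, limma adjusted p = 0.00652). Car9 lost its call without 5 of 6 arrays (limma adjusted p up to 0.103) and Car12 without any sham animal (up to 0.121).

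Cited2, whose product competes with HIF for the coactivator CBP, had effects of opposite sign in the species at 6 h. In rat it read 9.99, 9.67 and 10.08 after pMCAO and 8.62, 8.52 and 8.43 in sham, all animals apart (1.39 ± 0.18, limma adjusted p = 0.00138). Mouse animals read 8.78, 8.91 and 8.70 against 9.29, 9.14 and 8.99, also apart but with pMCAO lower (-0.34, limma adjusted p = 0.101). The mouse effect minus the rat effect was -1.73 ± 0.22 (adjusted p = 0.000256, limma effects over the shared symbols), and it passed whichever array was left out. At 2 h the effects were 0.47 in mouse and 0.40 in rat.

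Of 19 other angiogenic ligands and receptors in mouse 2 rose and 0 fell at 6 h (limma; 1 lower at an unadjusted p under 0.05), and of 18 in rat 0 rose (2 higher at an unadjusted p under 0.05) and 2 fell. In mouse Pdgfb, a growth factor that recruits pericytes to vessels, rose by 0.67 ± 0.13 (limma adjusted p = 0.0130, and 0.0535 without sham replicate 3), and Nrp1, a co-receptor for Vegfa, by 0.57 ± 0.15 (limma adjusted p = 0.0390, lost without 5 of 6 arrays, up to 0.112). In rat Ramp2, the partner protein that makes the adrenomedullin receptor, fell by 0.37 ± 0.10 on the log2 scale (limma adjusted p = 0.0452), while its ligand gene Adm rose. Vegfc, the growth factor of lymphatic vessels, fell by 0.36 ± 0.09 on the log2 scale (limma adjusted p = 0.0275). Ramp2 no longer passed whichever of the 6 arrays was dropped (limma adjusted p up to 0.141), and Vegfc for 5 of them (up to 0.111). At 2 h no gene of the 4 lists passed in either species (limma). At an unadjusted p under 0.05, 3 of the lists' genes were higher and 4 lower in mouse, and 5 and 7 in rat.

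**Figure D3:**
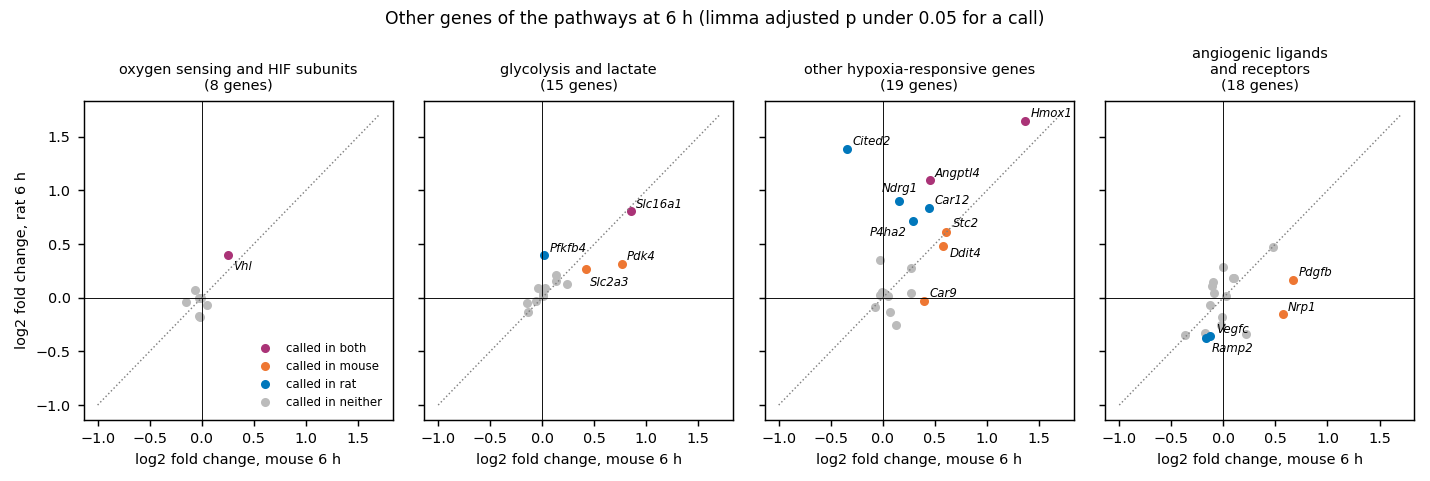
Log2 fold change of pMCAO over sham at 6 h in mouse (horizontal axis) and rat (vertical axis) for the genes of the 4 other pathway lists measured in both species, coloured by where limma called them, with a dotted line of equal effects. Hmox1 and Slc16a1 lie near that line, and Cited2 lies at -0.34 in mouse and 1.39 in rat.

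The genes closest in pattern were found by the root mean square (RMS) difference between log2 values, each taken from the sham mean of its species and time, over the 24 arrays and 14193 shared genes. For Vegfa these were Ccdc184 (RMS 0.133), Msmo1 (0.135) and Mvd (0.138), where the median gene lay at 0.388. For Adm they were Slc16a1 (0.183), Bag3 (0.199) and Prkab2 (0.206), against a median of 0.570. For Pfkfb3 they were Dot1l (0.169), Vgf (0.170) and Itpkc (0.171), against 0.479. The effects were 0.23, 0.85, 0.19 and 0.81 for Slc16a1 and 0.23, 1.16, 0.19 and 0.91 for Adm, in mouse at 2 h and 6 h and rat at 2 h and 6 h. The arrays are shared between the genes, and the lists are a description.

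Markers of several cell types moved with the 6 h comparison in which these genes rose. Of 7 endothelial markers in rat 4 fell, among them the barrier transporters Slco1a4 (-1.90) and Abcb1a (-1.08), and of 9 in mouse 2 fell (Slco1a4 by 0.82 and Abcb1a by 0.44 on the log2 scale) and 1 rose, Cdh5 (0.58). Positive in rat without passing were Cdh5 (0.47, limma adjusted p = 0.154) and Esam (0.45, limma adjusted p = 0.0789). Of 4 microglia markers 2 fell in each species, and their mean was 7.37 to 7.54 after pMCAO against 7.75 to 7.80 in sham in mouse and 7.30 to 7.58 against 7.83 to 7.92 in rat. The mean of the neutrophil markers was higher in every pMCAO animal than in every sham animal at both times, at 6 h 4.81 to 5.08 against 4.67 to 4.72 in mouse (8 markers, 1 rose) and 4.89 to 5.23 against 4.41 to 4.63 in rat (7 markers, 2 rose). Of the 8 in mouse, 6 had positive effects at 2 h and 5 at 6 h, and all 7 in rat did at both times. At 2 h none passed in either species (limma). The mouse means lay below the first quartile of mouse gene means, 5.25 at 2 h and 5.17 at 6 h. The 6 striatal neuron markers averaged 7.33 to 7.53 after pMCAO against 7.61 to 8.79 in sham in mouse at 6 h (2 fell), where sham replicate 2 was nearest the pMCAO animals, and the 8 measured in rat 6.86 to 6.90 against 6.71 to 6.78 (none passed in limma). With this striatal mean as a covariate, genes called over the whole table at 6 h went from 1649 to 65 in mouse and from 1175 to 606 in rat. Of the members, Adm kept its call in mouse, and Adm, Vegfa and Slc2a1 in rat. The effects of those that lost it were 0.76 for Angpt2, 0.45 for Vegfa and 0.66 for Pfkfb3 in mouse, against 0.86, 0.52 and 0.46 without the covariate, and 0.57 for Angpt2 and 1.02 for Pfkfb3 in rat, against 0.55 and 1.02. Standard errors of the called members were 1.38 to 1.51 times as large with it in mouse and 1.10 to 1.18 times in rat. The 11 calls of the other pathway lists in mouse at 6 h were all lost, with effects 0.66 to 1.09 times those without the covariate (1.34 for Hmox1 and 0.65 for Stc2). Of the 11 in rat 5 were lost (Vhl, Pfkfb4, Car12, Ramp2 and Vegfc), with effects over all 11 at 0.79 to 1.11 times. The pericyte markers overlapped between the groups, 7.38 to 7.48 after pMCAO and 7.31 to 7.48 in sham in mouse and 7.07 to 7.35 and 7.10 to 7.31 in rat at 6 h. So did the astrocyte markers, 9.09 to 9.28 and 8.90 to 9.18 in mouse and 10.35 to 10.57 and 10.26 to 10.51 in rat. The oligodendrocyte markers were higher in mouse pMCAO animals at 6 h, 9.05 to 9.11 against 8.66 to 8.998, and overlapped in rat, 9.87 to 10.09 and 9.98 to 10.04. The mean of the cortical neuron markers was lower in every pMCAO animal than in every sham animal at 6 h, 9.13 to 9.22 against 9.34 to 9.38 in mouse (5 markers) and 10.16 to 10.31 against 10.40 to 10.48 in rat (4 markers), and in each species 1 of them fell, Neurod6 (-0.73 in mouse and -0.91 in rat). No other cortical marker passed, and 2 in mouse and 1 in rat had positive effects. The median effect of the cortical list was -0.14 in mouse and -0.07 in rat. The 5 meningeal fibroblast markers were higher in mouse pMCAO animals at 6 h, 6.00 to 6.17 against 5.84 to 5.99, and overlapped in rat, 5.73 to 6.19 and 5.87 to 6.28, with none past the threshold in limma (at an unadjusted p under 0.05, 1 higher in mouse). The choroid plexus markers overlapped in both species at 6 h, but in mouse pMCAO replicate 3 stood apart at 8.35 against 6.32 and 6.29, with sham animals at 6.14, 7.17 and 6.28. That animal also had the highest Vegfa, Adm and Slc16a1 of its group, and without it the mouse 6 h effects were 0.39 for Vegfa (limma adjusted p = 0.0409), 1.09 for Adm (0.00173) and 0.71 for Slc16a1 (0.0114). In rat the choroid plexus means at 6 h were 5.25 to 5.54 after pMCAO and 5.12 to 5.30 in sham. The 2 red cell markers measured in rat overlapped at 6 h (8.08 to 8.55 and 8.02 to 8.25), and none was measured singly in mouse. The striatal marker mean itself stood apart between pMCAO and sham animals at 6 h in both species. A fit with it as a covariate therefore cannot separate it from the occlusion. The part of these cell types in the members' effects was not tested.

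**Figure D4:**
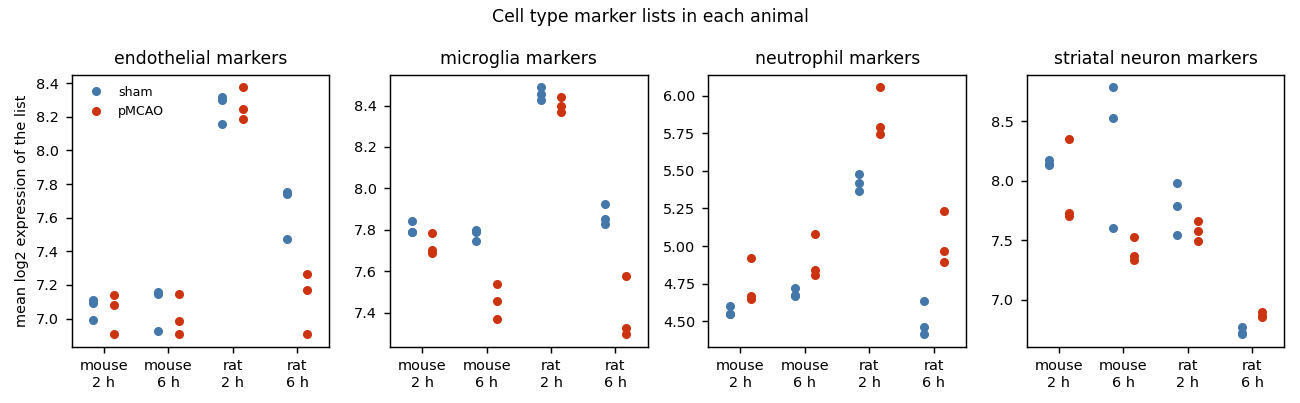
Mean log2 expression of 4 cell type marker lists (vertical axis, own scale per panel) in each animal, by species and time (horizontal axis), for sham (blue) and pMCAO (red). At 6 h the microglia mean was lower and the neutrophil mean higher in every pMCAO animal than in every sham animal in both species, while the endothelial mean was lower in all pMCAO animals in rat alone.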

How the data were processed

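RNA of 24 animals was read on whole-transcript arrays, 12 per species. The authors deposited log2 values in 1 table for mouse and 1 for rat, made with oligo and limma per the submitters' processing notes. How they corrected background and normalized, and the build, is not given in the sources used. Groups came from the titles, since another label gives 2 h as the time of all samples. Clusters with a single symbol were kept, taking the highest mean over 12 arrays where a symbol had several. The second mouse clusters of Slc2a1 (effects -0.12 and 0.20 at 2 h and 6 h) and Pdk1 (-0.09 and -0.27) were not used. With limma 3.58.1 (R 4.3.3), the means of 4 groups were fitted to the 12 arrays of a species (8 residual degrees of freedom, default eBayes, two-sided tests). Species differences used Satterthwaite degrees of freedom. The fits were tested on simulated data with normal noise drawn independently for each gene and array. Variation shared across the genes of an array was not simulated, so the rates below need not hold for the real arrays. Log2 changes of 0.5 were recovered in 61.4% of cases in mouse and 50.9% in rat at 2 h, and in 58.3% and 75.8% at 6 h. Changes of 1 were recovered in 89.3% to 96.3%. Of the calls in a simulated comparison, 2.69% to 7.01% were false. An exact permutation test of 3 against 3 cannot go below 0.1. Promoter windows were RefSeq's.

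The 10 genes, 4 pathway lists and marker lists (endothelial, pericyte, astrocyte, microglia, neutrophil, oligodendrocyte, striatal, cortical and pan-neuronal, choroid plexus, meningeal fibroblast, red cell) were chosen with earlier results of these data known. The rule named all 10 genes, up to 4 called genes per list and comparison with the largest log2 fold changes, and 3 of most similar pattern for Vegfa, Adm and Pfkfb3.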

Additional observations from a re-analysis of the deposited data

Results flagged for a closer look

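In mouse the pMCAO effect differed between 6 h and 2 h by 0.94 ± 0.15 on the log2 scale for Adm (limma adjusted p = 0.0400), by 1.05 ± 0.17 for Angpt2 (limma adjusted p = 0.0416) and by 1.01 ± 0.17 for Pdk4 (limma adjusted p = 0.0466), by the test of the difference itself. At 6 h the effect on Cited2 in mouse minus that in rat was -1.73 ± 0.22 (adjusted p = 0.000256, limma effects).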

How the results depend on the processing

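Of 596 values of single genes among the 10 under the alternatives, 543 kept direction and side of the threshold, 32 lost the call, 1 gained it and 20 turned sign, all 20 near 0 and called under no setting. Adm passed at 6 h in both species under every setting that kept it among the genes tested. Leaving out each array in turn gave 23 to 42 genes called in mouse at 2 h (66 with all arrays), 616 to 1368 in mouse at 6 h (1649), 0 to 16 in rat at 2 h (12; 0 without sham replicate 3) and 550 to 1268 in rat at 6 h (1175). Of the 10 genes it gave 0 to 0 in mouse and rat at 2 h, 2 to 4 in mouse and 3 to 6 in rat at 6 h, 0 to 2 for the difference over time in mouse and in rat, and 0 to 0 at 2 h and 0 to 1 at 6 h for the species difference. Genes called in mouse at 2 h numbered 110 with trend and robust eBayes, 102 with array weights, 23 on 6 arrays alone, 39 over all clusters and 41 with the striatal covariate. In mouse at 6 h they numbered 2574 with trend and robust eBayes, 246 on 6 arrays, 2480 above the median level (fewer genes tested) and 65 with the covariate. In rat at 2 h they numbered 28, 65, 44, 4 and 20 with trend and robust eBayes, array weights, 6 arrays, all clusters and the level filter, and 1 with the covariate. In rat at 6 h they numbered 363 on 6 arrays and 606 with the covariate. Of the 10 genes, 6 arrays alone called 2 in mouse and 1 in rat at 6 h, the level filter 2 and 3 (it leaves out Adm, Angpt2 and Hk2) and the covariate 1 and 3. For the difference over time, mouse gave 0 over all clusters, with the level filter and with the covariate, and rat 1 with trend and robust eBayes, with array weights and with the level filter. The cause of these shifts was not tested. Deviations of samples with the same replicate number had correlations of -0.12 to 0.33, the highest for replicate 2 in rat at 2 h. In no comparison were all such pairs over 0.1, and in none did each sample correlate best with its own number. The main fit took the animals as unpaired. With 3 animals per group these correlations cannot exclude a pairing. With the replicate block 35, 665 and 2 genes were called in mouse at 2 h, mouse at 6 h and rat at 2 h, and of the 10 genes 2 in mouse at 6 h and 0 for the mouse difference over time. Signs turned with quantile scaling (rat 2 h Pdk1 0.033, Egln3 0.0017), median centring (rat 2 h Angpt2 0.0033, Pdk1 0.013), the mean of clusters (mouse 2 h Pdk1 -0.023) and the covariate (Pfkfb3 mouse 2 h 0.0048, Pdk1 mouse 6 h 0.025 and rat 6 h 0.017, Egln3 rat 2 h 0.033). With each array left out in turn, values spanned 0 for Pdk1 (mouse 2 h -0.0083 to 0.082, mouse 6 h -0.12 to 0.0083, rat 2 h -0.057 to 0.053, rat 6 h -0.095 to 0.0050), Pfkfb3 (mouse 2 h -0.18 to 0.040), Egln3 (rat 2 h -0.12 to 0.012) and Angpt2 (rat 2 h -0.065 to 0.040).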
